A study of Mus musculus with 12 samples.

Results

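The AP-1 transcription factors and a set of immediate early genes were followed in 4599 mouse melanoma cells. They comprise 10 genes of the 56748 in the deposited table, matched by symbol: Fos, Fosb, Fosl1, Fosl2, Jun, Junb, Jund, Egr1, Dusp1 and Ier2. Each symbol matched 1 row, and 9 of the 10 genes passed the filter for testing, a mean of at least 0.5 FPKM over all libraries, which 12661 genes passed. FPKM are reads scaled to gene length and to the reads of the library. Levels can be set side by side between genes and libraries, but effects of base composition are not removed. Fosb, at a mean of 0.412 FPKM, did not pass the filter.

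Cells of the 4599 line had been recovered from orthotopic melanomas, in 3 groups abbreviated TB, PIF and DIF for the part of the tumour, or from lung metastases, abbreviated Met. The labels do not spell these abbreviations out. Each group has 3 libraries, and the labels do not say whether these came from separate animals or cultures, so each p-value speaks for the scatter among these libraries, which may be technical. All 4 groups shared the same last steps: a gel of fibrillar bovine collagen (1.7 mg/ml) as the substrate, 24 h in 10% serum and then 24 h in 1% serum before lysis, so every group was measured a day after serum had been lowered. No group is untreated, the labels name no transgene or drug, and all samples come from 1 cell line.

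AP-1 is a dimer of basic leucine zipper proteins. A Jun protein pairs with a Fos protein or with another Jun protein and binds promoters and enhancers, and the composition of the dimer affects which genes respond. Fos, Fosb, Jun, Junb, Egr1, Dusp1 and Ier2 are immediate early genes: growth factors, serum, adhesion and stress switch them on within minutes, without new protein synthesis, through MAP kinases acting on ternary complex factors, SRF and CREB or ATF proteins, and their mRNAs decay fast. Fosl1, which encodes FRA1, and Fosl2, which encodes FRA2, respond later and stay on longer, and FRA1 is known as a product of sustained ERK signalling in melanomas and other tumours with an active MAP kinase pathway.

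Libraries held 15.5 to 18.4 M reads counted in genes, as rebuilt from the FPKM. The 9 melanocyte lineage markers summed to 423 ± 23.5 FPKM in TB and 497 ± 29.0 in PIF, against 311 ± 26.0 in DIF and 322 ± 28.5 in Met. Gpnmb carried most of that difference, with means of 93.5, 170 and 7.66 FPKM in TB, PIF and DIF and 6.57 in Met, and Mitf was at 15.2, 11.1, 4.24 and 4.25 in the same order. S100b was lowest in PIF, at 66.2 FPKM, and highest in Met, at 93.8, and Sox10 was measured at 203 to 269 FPKM, whereas Tyr, Dct and Mlana stayed below 0.4 FPKM and Tyrp1 was listed at 0 in all 12 libraries. The summed level of 5 fibroblast markers was 0.252 to 0.341 FPKM in TB and 0.559 to 0.640 in PIF, against 0.454 to 1.14 in DIF and 0.939 to 1.54 in Met. Of 7 leukocyte and macrophage markers, Itgam, Cd3e and Adgre1 were listed at 0 throughout, and the summed level was 1.56 to 2.42 FPKM in TB and 1.57 to 3.08 in PIF, against 0.726 to 1.24 in DIF and 0.974 to 1.23 in Met, most of it from Cd68. Markers of endothelium and of lung epithelium summed to at most 0.231 FPKM in any library, and of 3 keratinocyte markers Krt5 was at 0 and the sum, nearly all Krt10, was 2.02 to 3.31 FPKM. In bulk RNA, a change in the number of cells that hold an mRNA and a change in its level per cell cannot be told apart.

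The first 150 bases upstream of the start site are shown for 5 of the genes, because their differences between groups, or the lack of them, make up the results below. The sequences are those of RefSeq on GRCm38.p6, a build that may differ from the one of the deposited table, and 7 of the 10 genes had an entry; Fosl1, Egr1 and Ier2 had none. Capitals mark matches, on either strand, to the cAMP response element TGACGTCA, its 5-letter part TGACG, the TGACATCA variant, the GC box GGGCGG, the box read as CCAAT, the TATA box TATAAA and the EGR site GCGNGGGCG. TGACG lies inside TGACGTCA, and the EGR site and the GC box overlap in Fosl2.
Dusp1 (chr17:26508473-26508622, minus strand): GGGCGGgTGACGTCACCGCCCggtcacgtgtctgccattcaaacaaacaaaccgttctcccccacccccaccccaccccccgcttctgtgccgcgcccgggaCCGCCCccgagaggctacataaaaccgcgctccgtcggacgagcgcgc
Junb (chr8:84978749-84978898, minus strand): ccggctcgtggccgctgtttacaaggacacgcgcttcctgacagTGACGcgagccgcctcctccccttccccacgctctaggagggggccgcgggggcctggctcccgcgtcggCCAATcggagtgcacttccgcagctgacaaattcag
Fosl2 (chr5:32136322-32136471, plus strand): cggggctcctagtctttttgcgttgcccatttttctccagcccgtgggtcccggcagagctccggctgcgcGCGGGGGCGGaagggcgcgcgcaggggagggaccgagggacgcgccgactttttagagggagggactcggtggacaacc
Fos (chr12:85473740-85473889, plus strand): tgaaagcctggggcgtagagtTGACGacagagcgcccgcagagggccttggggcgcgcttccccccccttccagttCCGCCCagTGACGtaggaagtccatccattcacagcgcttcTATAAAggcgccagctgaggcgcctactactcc
Jun (chr4:95052223-95052372, minus strand): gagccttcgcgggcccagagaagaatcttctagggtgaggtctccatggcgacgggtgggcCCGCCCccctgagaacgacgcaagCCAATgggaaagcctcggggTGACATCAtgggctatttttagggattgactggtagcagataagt
The full TGACGTCA stood in the Dusp1 window, between a pair of GC boxes, and in 1.36% of 32851 promoter windows of this length. TGACG was found in the windows of Dusp1, Junb, Fos and Fosb, against 13.3% of all windows, and TGACATCA in that of Jun, against 2.32%. GGGCGG was found in 5 of the 7 windows against 28.6% of all, CCAAT in Jun and Junb against 24.5%, TATAAA in Fos against 7.57% and GCGNGGGCG in Fosl2 and Fosb against 3.81%. The AP-1 site TGANTCA, held by 4.24% of all windows, and the CArG box bound by SRF, held by 0.916%, were not among the letters of the 7 windows. The search covered only these 150 bases, so sites further upstream, and any site of Fosl1, Egr1 and Ier2, were not looked for. These matches describe letters only.

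Dusp1, Fosl2 and Junb shared a direction: all 3 genes were lowest in PIF and higher in DIF and in Met. Fosl1 went the other way between PIF and DIF. Fos, Egr1 and Ier2 had their highest mean in TB. In limma's moderated F test over the 4 groups, 4 of the 9 tested genes, Dusp1, Fosl2, Junb and Egr1, differed at a Benjamini-Hochberg adjusted p under 0.05, against 24.8% of all 12661 genes tested. With a trend on transcript GC content taken out of each library, 7 of the 9 were called, against 25.9% of all genes. Fos, Fosl1 and Ier2 were added. With no filter on low values, 2 of 10 were called, Dusp1 and Fosl2, against 10.6% of 27256 genes. Without PIF replicate 3 the count was again 4, against 24.6% of all genes, but Fosl1 (0.030) and Ier2 (0.027) were called in place of Junb and Egr1. The Junb call was lost without PIF replicate 3 (0.057) and the Egr1 call without TB replicate 1 (0.092), TB replicate 2 (0.11) or PIF replicate 3 (0.052).

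**Figure D1:**
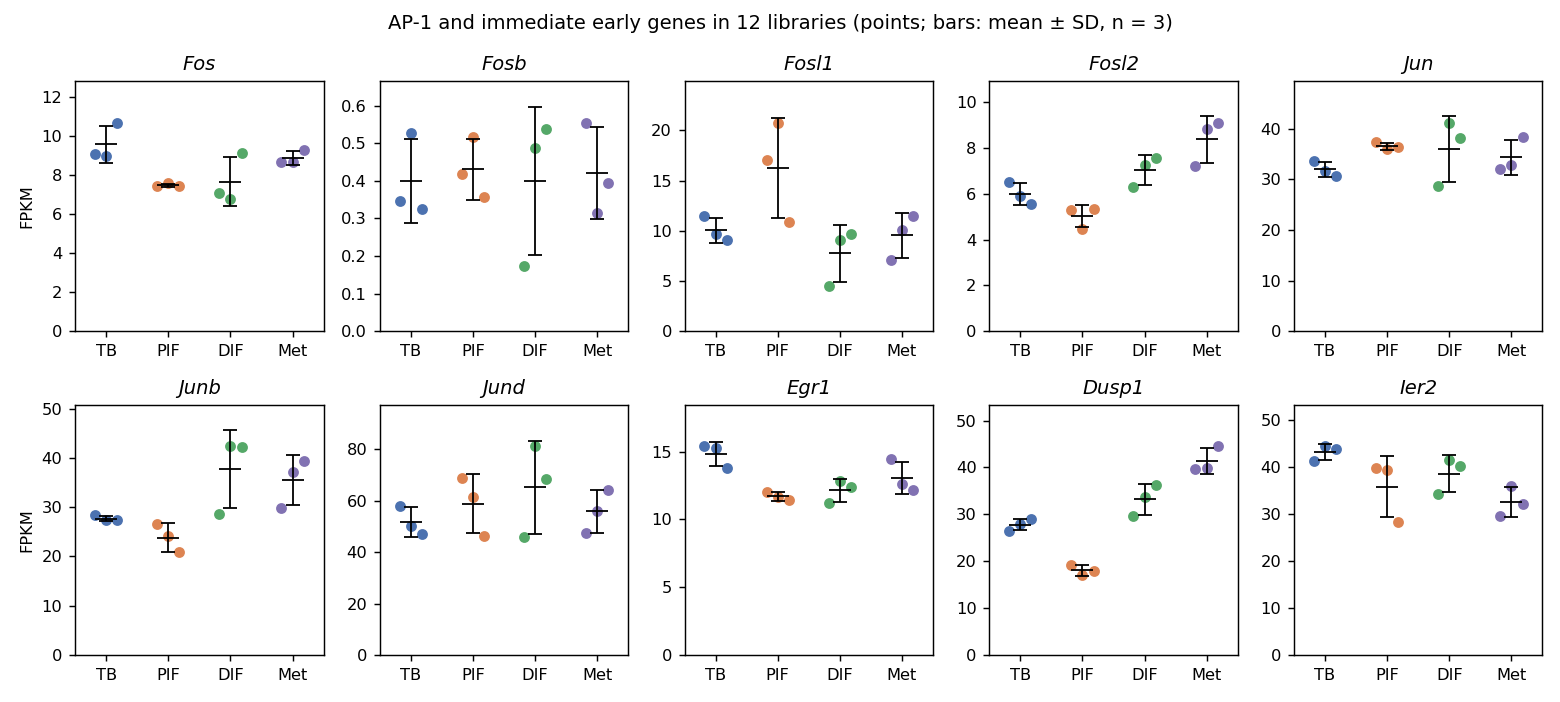
FPKM of each gene in the 12 libraries, by group; points are libraries, in replicate order from left to right, and bars are the mean ± SD of 3. Dusp1 separates all 4 groups without overlap, from 17.0 to 19.2 FPKM in PIF up to 39.6 to 44.5 in Met, whereas Fosl1 runs from 10.9 to 20.8 FPKM within PIF and Jund from 45.7 to 81.2 within DIF.

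Among the Jun proteins, Jund was the most abundant mRNA of the set. Jund (chromosome 8, 71151599 to 71153265, plus strand) encodes JUND, which unlike JUN is usually present in resting cells. Its 3 libraries gave 58.1, 50.3 and 47.0 FPKM in TB, 69.0, 61.4 and 46.2 in PIF, 45.7, 81.2 and 68.7 in DIF and 47.6, 55.9 and 64.3 in Met. The groups overlapped in all 6 comparisons, and the F test gave an adjusted p of 0.64. The log2 difference of DIF from TB was 0.29 with a 95% interval of −0.14 to 0.73, so a change of either sign was not resolved. Jun (chromosome 4, 94937271 to 94940459, minus strand), the founding AP-1 subunit and target of JNK, was measured at 33.6, 31.7 and 30.6 FPKM in TB, 37.3, 35.9 and 36.5 in PIF, 28.8, 41.2 and 38.2 in DIF and 32.0, 32.8 and 38.3 in Met. PIF lay above TB in every library, by 0.19 on the log2 scale (95% interval −0.05 to 0.43), which did not pass the test at an adjusted p of 0.30, and the other pairs overlapped. Without DIF replicate 1 the difference of DIF from TB was called (adjusted p 0.046).

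Junb (chromosome 8, 85701113 to 85705347, minus strand) encodes a Jun protein that can restrain JUN at some targets. Its level was 28.3, 27.3 and 27.4 FPKM in TB, 26.5, 24.1 and 20.8 in PIF, 28.5, 42.3 and 42.2 in DIF and 29.8, 37.2 and 39.4 in Met. Every DIF and Met library was above every TB library and every TB library above every PIF library. DIF exceeded PIF by 0.62 on the log2 scale (SE 0.15, adjusted p 0.011) and Met exceeded PIF by 0.55 (SE 0.15, adjusted p 0.022). The differences from TB, 0.41 for DIF (adjusted p 0.12) and 0.34 for Met (adjusted p 0.19), did not pass, and the SD of the DIF libraries was 7.94 FPKM against 0.564 in TB. Without DIF replicate 1 the DIF difference from TB was called (adjusted p 0.012), and the Met difference from PIF was lost without PIF replicate 3 (0.070), Met replicate 2 (0.076) or Met replicate 3 (0.086). The listed Junb locus overlaps Prdx2 on the opposite strand, which was measured at 150 to 173 FPKM and gave an F test adjusted p of 0.84. Since the strand setting is not given in the sources used here, reads of overlapping genes cannot be assigned with certainty.

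Among the Fos proteins, Fos itself (chromosome 12, 85520664 to 85524047, plus strand), the classical serum-induced gene, stood at 9.08, 9.02 and 10.7 FPKM in TB, 7.43, 7.58 and 7.46 in PIF, 7.09, 6.80 and 9.14 in DIF and 8.67, 8.70 and 9.32 in Met. PIF lay below TB and below Met without overlap, with the smallest SD of the 4 groups, 0.0832 FPKM. The fall from TB to PIF was 0.32 on the log2 scale (SE 0.09, adjusted p 0.046). Without DIF replicate 3 the difference of DIF from TB was called as well (adjusted p 0.0097). The PIF call sat near the threshold: its adjusted p ran from 0.014 to 0.18 over 22 alternatives, and it was lost without any 1 of the TB, PIF or Met libraries, at 0.058 to 0.18. Fosb (chromosome 7, 19036621 to 19043976, minus strand), an inducible relative of Fos, was measured by 18 to 63 reads per library. It ranged from 0.324 to 0.528 FPKM in TB and 0.357 to 0.516 in PIF, against 0.173 to 0.537 in DIF and 0.315 to 0.555 in Met, with counting error alone of up to 23.6%. The groups overlapped throughout, their means lay between 0.399 and 0.430 FPKM, and no difference passed the test (adjusted p 0.99 over the 4 groups, fitted without the filter). The SD of the DIF libraries, 49.5% of their mean, was above the counting error.

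Fosl1 (chromosome 19, 5497575 to 5505974, plus strand) had the widest range of the tested genes, 4.60-fold from the lowest to the highest library. It was measured at 11.5, 9.64 and 9.06 FPKM in TB, 17.0, 20.8 and 10.9 in PIF, 4.51, 9.10 and 9.73 in DIF and 7.08, 10.1 and 11.5 in Met. The PIF libraries were all above the DIF libraries, with PIF replicate 3 well under the other two, and DIF replicate 1 was the lowest of all 12. DIF was lower than PIF by a factor of 1.98 on the log2(FPKM + 1) scale (log2 difference −0.99, SE 0.27, adjusted p 0.024). PIF exceeded TB by 0.60 on the log2 scale (95% interval 0.01 to 1.19, adjusted p 0.17) and the difference of Met from PIF was −0.68 (adjusted p 0.11), and neither passed the test, although the Met difference was called without PIF replicate 3 (0.034) or DIF replicate 1 (0.045). The DIF call was lost without PIF replicate 1 (adjusted p 0.072), PIF replicate 2 (0.085) or DIF replicate 1 (0.079), without the filter (0.070) and with the spread of these 6 libraries alone (0.073). The listed Fosl1 locus overlaps Ccdc85b on the opposite strand, which was measured at 5.82 to 10.7 FPKM.

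Fosl2 (chromosome 5, 32293145 to 32315186, plus strand) moved opposite to Fosl1 between PIF and DIF. Its libraries gave 6.52, 5.89 and 5.56 FPKM in TB, 5.28, 4.47 and 5.35 in PIF, 6.28, 7.26 and 7.56 in DIF and 7.21, 8.83 and 9.09 in Met. PIF was lowest without overlap, Met lay above TB without overlap, and DIF overlapped both TB and Met. Met exceeded PIF by 0.63 on the log2 scale (SE 0.10, adjusted p 0.00087), DIF exceeded PIF by 0.41 (SE 0.10, adjusted p 0.012) and Met exceeded TB by 0.42 (SE 0.10, adjusted p 0.018). Both differences from PIF held under all 22 alternatives. The rise from TB to Met was lost without TB replicate 2 (0.066), TB replicate 3 (0.082), Met replicate 2 (0.072) or Met replicate 3 (0.083).

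Summed per length, the Jun family mRNAs outweighed the Fos family mRNAs in every library, by 3.64-fold to 6.96-fold. The ratio was 4.09 to 4.38 in TB and 3.64 to 4.41 in PIF, against 5.53 to 6.96 in DIF and 4.50 to 4.68 in Met, so DIF stood above the 9 other libraries. Within the Fos family, Fosl1 made up 54.7 ± 8.67% in PIF (SD, n = 3) against 38.5 ± 3.24% in TB, 33.2 ± 7.20% in DIF and 34.7 ± 4.10% in Met, and each PIF library, from 45.2%, was above every other library, up to 41.8%. Fosl2 made up 17.7 ± 4.43% in PIF, 23.0 ± 1.14% in TB, 31.2 ± 3.40% in DIF and 30.7 ± 0.808% in Met. The shares of DIF and Met, 28.0 to 34.8%, lay above those of TB and PIF, 13.4 to 23.8%, in all libraries. Within the Jun family, Junb made up 19.9 to 20.1% in PIF, 23.6 to 26.1% in TB, 25.7 to 28.3% in DIF and 27.3 to 29.6% in Met, so PIF stood below the 9 other libraries. These sums and shares are descriptions without correction for base composition and were given no test.

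**Figure D2:**
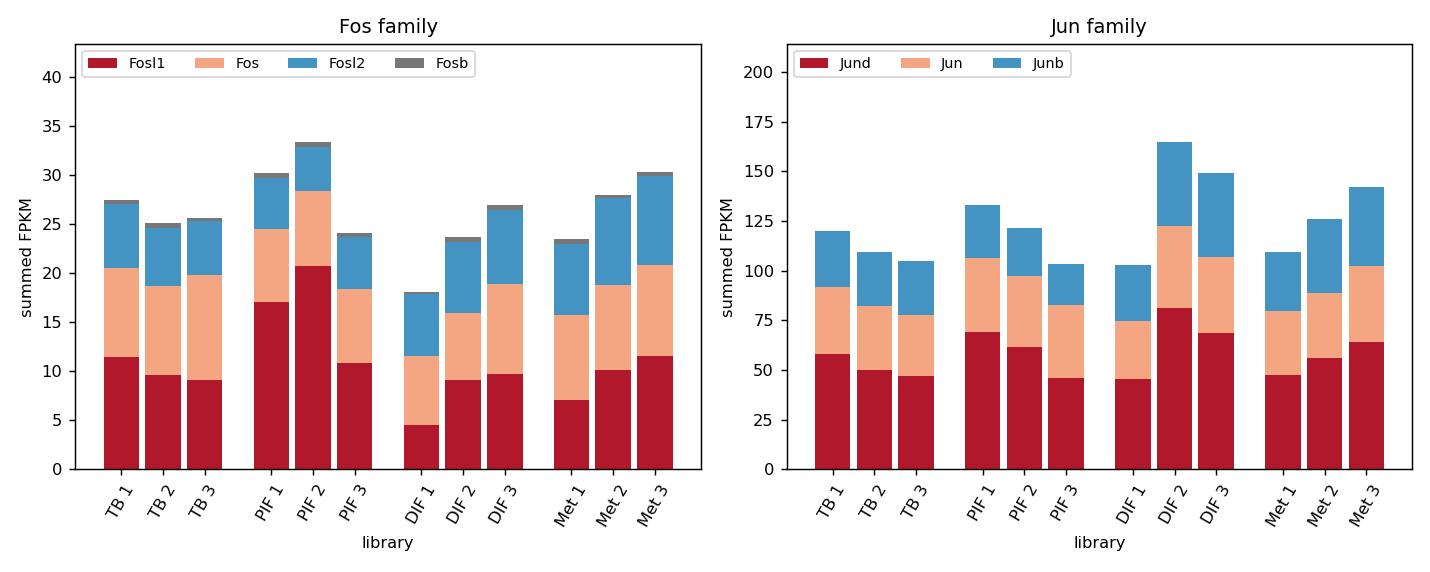
Summed FPKM of the Fos family (left) and the Jun family (right) in each library, stacked by gene. Fosl1 takes 45.2 to 62.3% of the Fos family column in PIF and at most 41.8% elsewhere, and Junb takes 19.9 to 20.1% of the Jun family column in PIF.

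Dusp1 (chromosome 17, 26724564 to 26781102, minus strand), a nuclear phosphatase that switches off p38, JNK and ERK and is itself an immediate early gene, differed most. Its libraries gave 26.5, 27.8 and 28.9 FPKM in TB, 19.2, 17.0 and 17.8 in PIF, 29.7, 33.6 and 36.3 in DIF and 39.6, 39.8 and 44.5 in Met. The 4 groups did not overlap, in the order PIF, TB, DIF, Met. From PIF to Met the level rose by 1.15 on the log2 scale (SE 0.08, 2.22-fold on the log2(FPKM + 1) scale, adjusted p 1.7e-06), from PIF to DIF by 0.84 (SE 0.08, adjusted p 1.6e-05) and from TB to Met by 0.56 (SE 0.08, adjusted p 0.00082), and it fell from TB to PIF by 0.60 (SE 0.08, adjusted p 0.00067). Each of these 4 calls held under all 22 alternatives. The steps from TB to DIF, 0.25 (adjusted p 0.077), and from DIF to Met, 0.31 (adjusted p 0.053), did not pass, and 3 and 8 of the 22 alternatives called them. Among these were the TB to DIF step without DIF replicate 1 (0.028) and the DIF to Met step without PIF replicate 2 (0.049) or DIF replicate 3 (0.036). The listed locus spans 5 other genes, of which Ergic1, a protein of the early secretory pathway on the opposite strand, was at 22.2 to 29.8 FPKM. Ergic1 was also called lower in PIF than in TB, by 0.25 on the log2 scale (adjusted p 0.0065), with 27.4 ± 0.635 FPKM in TB and 22.9 ± 0.545 in PIF, against 27.4 ± 0.757 in DIF and 28.5 ± 1.10 in Met, and higher in DIF and in Met than in PIF (adjusted p 0.0039 and 0.0011); its part in the Dusp1 values was not tested.

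Egr1 (chromosome 18, 34992876 to 34998037, plus strand), a zinc finger factor induced by serum and ERK, was measured at 15.4, 15.3 and 13.8 FPKM in TB, 12.04, 11.6 and 11.4 in PIF, 11.2, 12.8 and 12.4 in DIF and 14.4, 12.6 and 12.2 in Met. TB lay above PIF and above DIF without overlap. Egr1 fell from TB to PIF by 0.32 on the log2 scale (SE 0.07, adjusted p 0.015) and from TB to DIF by 0.27 (SE 0.07, adjusted p 0.045). The PIF call was lost without TB replicate 2 (0.063). The DIF call was lost in 13 of 22 alternatives, among them without any 1 TB library (0.054 to 0.16), without PIF replicate 1 or 3, without DIF replicate 1, 2 or 3 and without Met replicate 2 or 3. Ier2 (chromosome 8, 85387960 to 85389483, minus strand), a nuclear immediate early protein, was at 41.3, 44.4 and 43.9 FPKM in TB, 39.8, 39.3 and 28.4 in PIF, 34.2, 41.4 and 40.3 in DIF and 29.5, 36.0 and 32.2 in Met. Met and PIF lay below TB in every library. The difference of Met from TB, −0.40 on the log2 scale (SE 0.12), had an adjusted p of 0.062, and 7 of 22 alternatives called it, among them without PIF replicate 3 (0.012).

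**Figure D3:**
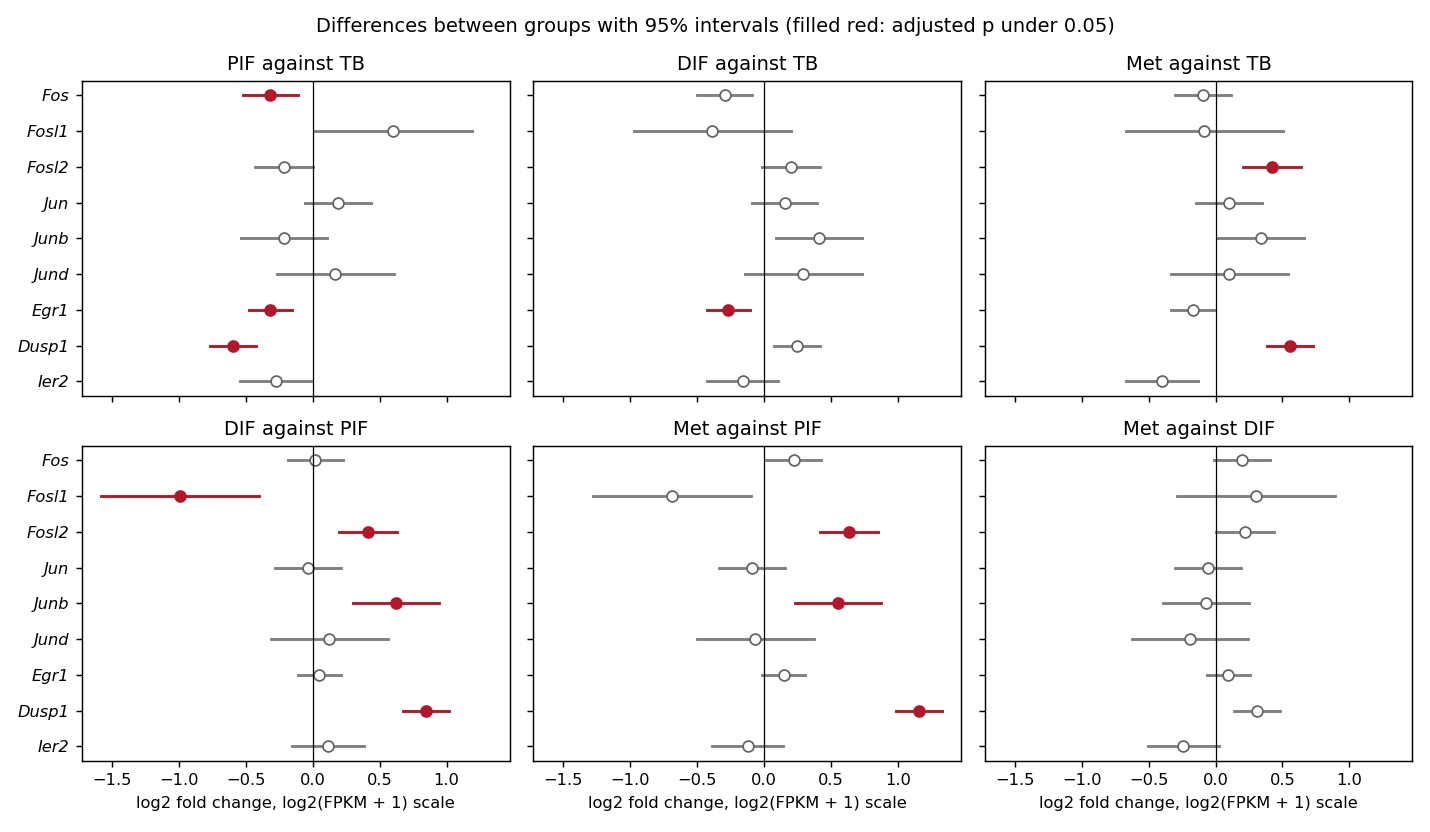
Log2 fold change of the 9 tested genes in each of the 6 comparisons, as points with 95% intervals; filled red points are called. Dusp1, Fosl2 and Junb are called higher in both DIF and Met than in PIF, and the Met against DIF panel holds no call.

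Against TB, PIF held 3 of the 9 genes called, where 14.1% of all tested genes were called. All 3, Dusp1, Egr1 and Fos, were lower, against 6.58% of all genes; 0 of 9 were called higher by limma (1 at an unadjusted p under 0.05, 0 with voom), against 7.52%. The median log2 difference of the 9 genes was −0.22, and that of all tested genes 0.00. PIF and TB did not overlap in 7 of the 9 genes, against 30.7% of all. Only Jun, among these 7, lay above TB.

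DIF held 1 of 9 called against TB, where 8.62% of all genes were called. This gene, Egr1, was lower (background 4.36%), and 0 were called higher by limma (2 at an unadjusted p under 0.05, 0 with voom; background 4.26%). Without DIF replicate 1 the balance turned to 3 called higher, Dusp1, Jun and Junb, and 0 lower, with Egr1 at an adjusted p of 0.14. In that setting 6.9% of all genes were called. The groups did not overlap in 3 of 9 genes, against 29.2% of all. Met held 2 of 9 called against TB, where 9.94% were called. Both, Dusp1 and Fosl2, were higher (background 5.32%), and 0 were lower by limma (2 at an unadjusted p under 0.05, and 1 with voom, Ier2; background 4.63%). The groups did not overlap in 4 of 9 genes, against 33.1% of all. DIF replicate 1, PIF replicate 3 and Met replicate 1 were also left out together, a choice made after the values were seen. In these libraries 8 or 9 of the 9 tested genes were below their group mean. Leaving them out therefore raised most of the remaining means by itself, and the counts below describe that choice and are no support. The counts against TB were then 3 for PIF, 4 for DIF and 5 for Met, against 15.2%, 8.54% and 9.77% of all genes. The 3 for PIF were then Dusp1 and Egr1, both lower, and Fosl1, higher by 0.85 on the log2 scale, while Fos was not called. The left-out libraries held the 3 lowest Fosl1 deviations from the group mean, −0.61, −0.49 and −0.36.

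Against PIF, DIF held 4 of 9 called, where 18.9% of all tested genes were called. Dusp1, Fosl2 and Junb were higher (background 9.03%) and Fosl1 was lower (background 9.85%). DIF and PIF did not overlap in these 4 genes, against 31.8% of all. Met held 3 of 9 called against PIF, where 17.6% were called. Dusp1, Fosl2 and Junb were higher (background 8.85%), and 0 were lower by limma (1 at an unadjusted p under 0.05, 0 with voom; background 8.8%). The groups did not overlap in 5 of 9 genes, which add Egr1 and Fos, against 32.2% of all. Both comparisons share the PIF libraries, so their values are not independent. Between Met and DIF limma called 0 of 9 (2 higher and 0 lower at an unadjusted p under 0.05; 1 with voom, Dusp1), where 3.86% of all tested genes were called, 2.36% higher and 1.5% lower. Dusp1 was the 1 gene of 9 without overlap, against 22.9% of all. The 95% interval of the Met against DIF difference was −0.39 to 0.25 for Junb, 0.01 to 0.44 for Fosl2 and −0.29 to 0.89 for Fosl1 on the log2 scale.

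In 6 of the 12 libraries at least 8 of the 9 tested genes deviated from the group mean in the same direction. In DIF replicate 1, 9 of the 9 tested genes were below their DIF mean, in DIF replicate 3, 9 of 9 were above it, and in DIF replicate 2, 8 of 9 were above it. In Met replicate 1 and in PIF replicate 3, 8 of 9 were below the group mean, and in PIF replicate 1, 8 of 9 were above it. Within a group the 3 deviations of a gene cancel, so a low library places the others higher and the libraries do not count separately. In these 6 libraries 48.0 to 51.1% of all 12661 genes were below their group mean. That is a share of single genes, not of sets with 8 of 9 in 1 direction. In the other 6 the genes were split, with 2 to 6 of 9 below the mean. The lowest deviations were those of Fosl1, −0.61 in DIF replicate 1 and −0.49 in PIF replicate 3, on the log2(FPKM + 1) scale, and Jund deviated by −0.46 and −0.32 in the same libraries. Of the 36 pairs of tested genes, 34 had a positive Pearson r between their deviations from the group means over the 12 libraries, with a median of 0.47; over all pairs of tested genes 50.01% were positive, with a median of 0.00. The r was 0.94 for Junb and Jund, 0.91 for Fosl1 and Junb, 0.91 for Fosl1 and Jund and 0.85 for Jun and Jund, whereas Egr1 had −0.28 with Fos, −0.05 with Fosl2 and 0.03 with Dusp1, and Fos had 0.04 with Jund. The genes share library, depth and base composition in these values.

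**Figure D4:**
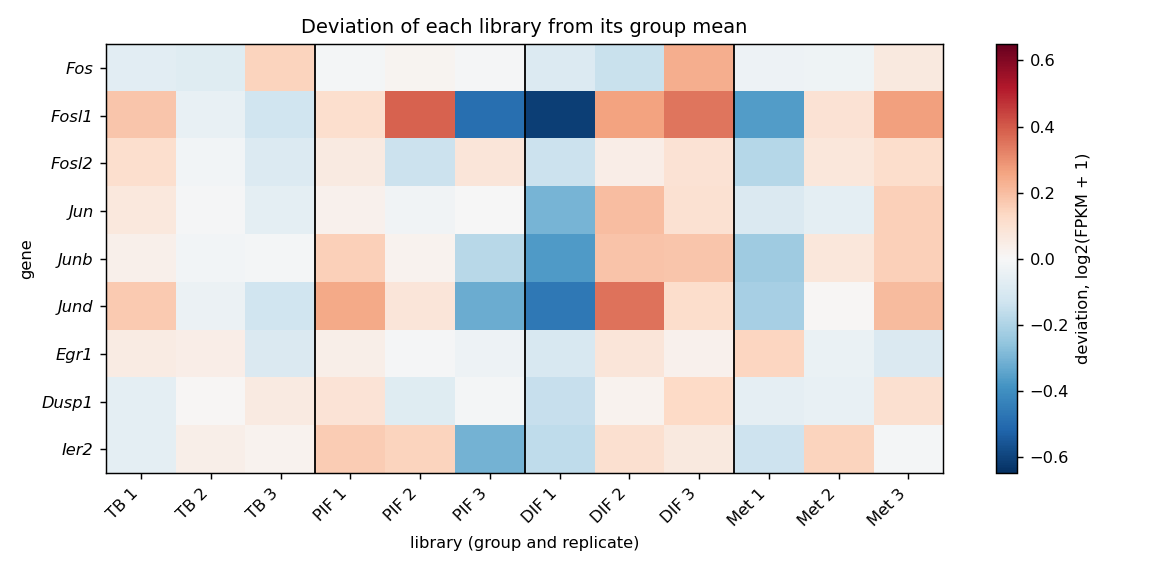
Deviation of each library from the mean of its group for the 9 tested genes, in log2(FPKM + 1); blue is below and red above the group mean. DIF replicate 1 is blue for all 9 genes and Met replicate 1 and PIF replicate 3 for 8, and Fosl1 in DIF replicate 1, at −0.61, is the deepest blue.

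Base composition differed between the genes and, by smaller amounts, its effect differed between the libraries. Transcripts of Jund, Junb, Ier2 and Fosl1 hold 67.1, 62.6, 60.9 and 58.5% G and C, above 99.8, 98.8, 97.4 and 92.3% of tested genes. The fifth of genes richest in G and C had a median deviation of −0.09 in PIF replicate 3, −0.05 in DIF replicate 1, 0.06 in DIF replicate 2 and 0.06 in PIF replicate 1, but 0.01 in Met replicate 1. With the GC trend removed, 9 of 9 genes were still below the group mean in DIF replicate 1, 8 of 9 in Met replicate 1 and 4 of 9 in PIF replicate 3. Of the high libraries, DIF replicate 3 then had 0 of 9 below, DIF replicate 2 had 2 and PIF replicate 1 had 3. At least 8 of 9 in the same direction thus remained only in DIF replicates 1 and 3 and in Met replicate 1. The other immediate early genes had a median deviation of −0.11 in DIF replicate 1, −0.09 in Met replicate 1 and −0.10 in PIF replicate 3, and heat shock genes −0.10, −0.09 and −0.08. The heat shock median was lowest, however, in PIF replicate 1, at −0.10, where 8 of 9 members were above the group mean. Mitochondrially encoded genes took 0.555% of reads in DIF replicate 1 against 0.443 and 0.476% in the other DIF libraries, 0.636% in Met replicate 1 against 0.565 and 0.537%, and 0.728% in PIF replicate 3 against 0.632 and 0.490%. The part of these measures in the spread of the members was not tested.

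Other genes of the pathway were counted by list. Of 36 other immediate early genes, 31 were tested. PIF held 3 higher and 6 lower than TB, where 7.52% and 6.58% of all tested genes were called. DIF held 3 higher and 5 lower than TB, against 4.26% and 4.36% of all, and Met 2 higher and 6 lower, against 5.32% and 4.63%. Against PIF, 6 rose and 9 fell in DIF (9.03% and 9.85% of all) and 5 rose and 7 fell in Met (8.85% and 8.8% of all). The list median was −0.10 for DIF against PIF, where that of all genes was 0.01. Gadd45b, a stress-induced regulator of MAP kinase kinases, was measured at 12.4 ± 1.21 FPKM in TB and 15.7 ± 2.57 in PIF, against 5.72 ± 0.986 in DIF and 7.60 ± 1.27 in Met, and fell from PIF to DIF by 1.31 on the log2 scale (adjusted p 5.7e-05). The polo-like kinase Plk3 was at 11.3 ± 0.695, 16.2 ± 2.25, 8.36 ± 1.63 and 7.85 ± 0.236 FPKM in the same order, and its relative Plk2 at 20.9 ± 1.06, 24.0 ± 1.19, 17.1 ± 1.06 and 17.4 ± 0.998. Both fell from PIF to DIF, by 0.88 (adjusted p 0.00035) and 0.47 (adjusted p 0.00039), the opposite direction to Dusp1 and Junb.

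Of 13 other basic leucine zipper partners of AP-1, 9 were tested. Maf, a large MAF factor, was at 4.05 ± 0.327 FPKM in TB and 4.55 ± 0.275 in PIF, against 6.67 ± 1.05 in DIF and 6.15 ± 0.643 in Met, and rose from TB to DIF by 0.59 on the log2 scale (adjusted p 0.0039) and to Met by 0.50 (adjusted p 0.0088). Batf3, a BATF protein that lacks a transactivation domain, was at 0.832 ± 0.0320, 1.57 ± 0.0986, 0.578 ± 0.391 and 0.548 ± 0.124 FPKM, and Mafg, a small MAF, at 15.6 ± 0.767, 18.2 ± 0.0738, 14.5 ± 1.23 and 14.7 ± 0.708. Both fell from PIF to DIF and from PIF to Met, at adjusted p of 0.0041 to 0.0093. In all, 1 rose and 3 fell in DIF against PIF (9.03% and 9.85% of all tested genes), and 1 rose and 3 fell in Met against PIF (8.85% and 8.8%). Against TB, PIF held 1 higher (7.52%), DIF 1 higher (4.26%) and Met 1 higher and 1 lower (5.32% and 4.63%). PIF and DIF held 0 lower by limma, against 6.58% and 4.36%. At an unadjusted p under 0.05 these were 0 and 2, and with voom 0 and 1.

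Of the kinases and factors upstream of FOS and JUN, 29 were in the table and 27 were tested. PIF held 5 higher and 1 lower than TB, against 7.52% and 6.58% of all tested genes, and DIF 3 higher and 1 lower, against 4.26% and 4.36%. Met held 1 higher, against 5.32%, and 0 lower by limma (2 at an unadjusted p under 0.05, 0 with voom), against 4.63%. Against PIF, DIF held 3 higher and 4 lower (9.03% and 9.85% of all) and Met 3 higher and 5 lower (8.85% and 8.8%). Rps6ka3, the ERK-activated kinase RSK2, was at 11.5 ± 0.234 FPKM in TB and 14.0 ± 0.869 in PIF, against 8.46 ± 0.287 in DIF and 10.0 ± 0.248 in Met, and fell from PIF to DIF by 0.66 on the log2 scale (adjusted p 7.8e-06). The p38 activators Map2k3 (34.4 ± 0.513, 43.8 ± 4.21, 29.9 ± 2.22 and 30.7 ± 1.41 FPKM) and Map2k6 (3.18 ± 0.186, 5.43 ± 0.250, 4.01 ± 0.501 and 3.68 ± 0.361) rose from TB to PIF, by 0.34 (adjusted p 0.012) and 0.62 (adjusted p 0.00085). Of 9 other dual-specificity phosphatases, 8 were tested, with 3 higher and 1 lower in PIF than in TB (7.52% and 6.58% of all tested genes). DIF held 2 and Met 1 higher than TB, against 4.26% and 5.32%. Both held 0 lower by limma (0 and 1 at an unadjusted p under 0.05, 0 with voom), against 4.36% and 4.63%. Against PIF, DIF and Met each held 1 higher and 1 lower (9.03% and 9.85% of all in DIF, 8.85% and 8.8% in Met). Dusp5, a nuclear ERK phosphatase, rose from 4.29 ± 0.381 FPKM in TB to 7.55 ± 0.872 in PIF (adjusted p 0.017) and was at 3.50 ± 0.986 in DIF. Dusp16, a JNK phosphatase, went the way of Dusp1, falling from 13.2 ± 0.0669 FPKM in TB to 10.8 ± 1.39 in PIF (adjusted p 0.045), with 16.8 ± 1.31 in DIF and 15.8 ± 0.431 in Met. Dusp4, another nuclear phosphatase, was at 84.9 ± 9.05, 129 ± 10.7, 116 ± 5.58 and 115 ± 6.44 FPKM and was called higher than in TB in PIF, DIF and Met at adjusted p of 0.0010 to 0.0066.

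Of 24 textbook AP-1 targets, 20 were tested. PIF held 8 higher and 1 lower than TB, where 7.52% and 6.58% of all tested genes were called. DIF held 1 higher and 8 lower than PIF, against 9.03% and 9.85% of all, and Met 3 higher and 7 lower than PIF, against 8.85% and 8.8%. Against TB, DIF held 3 higher and 2 lower (4.26% and 4.36% of all) and Met 4 higher and 5 lower (5.32% and 4.63%). Met held 3 higher than DIF, against 2.36% of all. It held 0 lower than DIF by limma (2 at an unadjusted p under 0.05, 1 with voom), against 1.5%. The list median was 0.28 for PIF against TB and −0.27 for DIF against PIF, where that of all genes was 0.00 and 0.01. It was −0.06 for DIF and 0.17 for Met against TB, where that of all genes was −0.0013 and −0.0031. The interstitial collagenase Mmp1a was at 23.3 ± 2.05 FPKM in TB and 62.2 ± 6.03 in PIF, against 5.27 ± 0.418 in DIF and 5.80 ± 0.668 in Met, and fell from PIF to DIF by 3.33 on the log2 scale (adjusted p 1.8e-09). Mmp10, a stromelysin, was at 3.83 ± 0.553, 15.1 ± 2.04, 2.46 ± 0.395 and 2.21 ± 0.821 FPKM in the same order, and fell from PIF to DIF by 2.21 (adjusted p 4.8e-06). Timp1, an inhibitor of these proteases, was at 341 ± 18.3, 456 ± 19.6, 280 ± 20.6 and 261 ± 26.8 FPKM and fell from PIF to DIF by 0.70 (adjusted p 9.7e-05). These 3 genes, named for their F test p, had their highest mean in PIF, as Fosl1 did. Fosl1 itself was not called over the 4 groups (F test adjusted p 0.075), and a link between them was not tested. Of 11 heat shock genes, 2 were called over the 4 groups, against 24.8% of all tested genes. Hspb1, a small heat shock protein, was at 6.24 ± 0.420, 4.22 ± 1.27, 11.4 ± 2.77 and 13.3 ± 2.37 FPKM. Bag3, a co-chaperone of HSP70, was at 69.9 ± 4.86, 98.7 ± 8.04, 86.0 ± 5.01 and 93.0 ± 4.48.

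The protein-coding genes whose level over the 12 libraries was most like that of a called member were found by Pearson r on log2(FPKM + 1), as a description with no test. For Dusp1 these were the aminopeptidase Aopep (r = 0.97), the myosin light chain kinase Mylk (0.96) and Crip1, a LIM domain protein (0.95). Mylk was at 1.56 ± 0.0326 FPKM in TB and 1.06 ± 0.0517 in PIF, against 2.14 ± 0.225 in DIF and 3.12 ± 0.254 in Met, the group order of Dusp1. Mylk was also among the 3 most like Fosl2 (0.95), after Lpp, a focal adhesion LIM protein (0.97), and Il13ra1, a cytokine receptor chain (0.95). Junb was most like Hspb1 (0.95), the water channel Aqp1 (0.94) and the mitochondrial Chchd6 (0.93). Egr1 was most like the phosphatase Phlpp2 (0.92), the netrin Ntn4 (0.92) and the nuclease Dclre1b (0.85). Among the members, Fosl2 and Dusp1 had an r of 0.92, Fosl2 and Junb 0.83 and Dusp1 and Junb 0.82, while Fosl1 had −0.55 with Dusp1 and −0.39 with Fosl2. The libraries fall into 4 groups, so each r mixes differences between and within groups.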

How the data were processed

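The 12 libraries, 3 per group, were read from both ends at 150 bases, per the labels. The authors deposited FPKM per gene. The submitters' processing notes name fastp, HISAT2 2.0.5 and featureCounts 1.5.0-p3; neither build, annotation nor strand setting is given in the sources used here. Gene lengths, entered as a score, are in bases as deposited by the authors. FPKM times this length, divided by a step fitted in each library, gave whole reads in 100.0% of values above 0. The largest gap from a whole number was 3.8e-10 reads, and libraries held 15.5 to 18.4 M reads. Counting errors derived from these reads cover counting only.

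Values were taken as log2(FPKM + 1) and fitted with limma 3.58.1 (R 4.3.3) for genes averaging 0.5 FPKM or more, with 1 mean per group, a spread shared by all groups and an intensity trend. Tests were two-sided, with Benjamini-Hochberg adjustment over all 12661 genes in each of the 6 comparisons and the F test, and calls at an adjusted p under 0.05. This scale understates fold changes of low genes. The fit was tested on simulated data. Alternatives were a pseudocount of 0.1, no filter, a filter at 2 FPKM, quantile normalization, a replicate block, voom on the rebuilt reads, the 2 groups alone and leaving out each library. Removal of a GC trend, with and without the block, and leaving out 3 libraries were chosen after seeing the data. GC content came from the longest GENCODE M21 transcript of each gene. All 10 members are named, with up to 3 genes of each list by F test p and the 3 most like each called member; the genes of overlapping loci (Ergic1, Prdx2, Ccdc85b) were chosen after their values were seen. The members and lists were chosen with earlier results of these data known. Motifs were searched in the 150 bases before each RefSeq start site.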

Additional observations from a re-analysis of the deposited data

How the results depend on the processing

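Members called over the 4 groups numbered 4, where 24.8% of all tested genes were called. The count was 2 with no filter on low values (10.6% of all genes there) and 7 with the GC trend removed (25.9%). It was also 7 with the replicate block and GC trend removed (27.9%) and with 3 correlated libraries left out (22.2%). These 3, DIF replicate 1, PIF replicate 3 and Met replicate 1, had deviations that correlated across all tested genes at 0.257 to 0.332. They were also those with 8 or 9 of 9 members below the group mean, so counts without them follow in part from that choice. PIF replicate 2, DIF replicate 3 and Met replicate 2, which were kept, correlated at 0.209 to 0.315. Leaving out 1 library gave 3 to 5 members, against 18.8 to 24.6% of all genes. DIF against TB held 1 call (8.62% of all tested genes). It held 0 with no filter (3.53%) or the 2 groups alone (7.68%), and 2 with quantile normalization (8.56%). The replicate block gave 2 (9.68%), the block and GC trend removed 2 (9.99%) and leaving out the 3 libraries 4 (8.54%). Leaving out 1 library gave 0 to 3 calls, against 4.65 to 9.98% of all genes. Met against TB held 2 calls (9.94% of all genes) and 5 with the 3 libraries left out (9.77%). Without 1 library it held 1 to 3 (6.26 to 11.6%). PIF against TB held 3 (14.1%), and 1 to 3 without 1 library (7.57 to 14.6%). Met against DIF held 0 (3.86%), and 1 with a filter at 2 FPKM, quantile normalization or voom (4.17 to 4.94%). It also held 1 with the replicate block, the GC trend removed or both (3.9 to 4.24%). Leaving out 1 library gave 0 to 1, against 1.85 to 4.7% of all genes. The cause of these moves was not tested. Without 1 library, DIF against PIF gave 3 to 4 calls, against 14.4 to 18.8% of all genes. Met against PIF gave 2 to 4, against 12.8 to 18.2%. There Fosl1 joined without DIF replicate 1 and took the place of Junb without PIF replicate 3.

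Same-numbered libraries gave 18 pairs whose deviations correlated at −0.20 to 0.33, 5 of them over 0.1. The 36 other pairs correlated at −0.33 to 0.32. Of the 12 libraries, 6 correlated best with their own number. Because the ranges overlap, these values cannot decide whether the numbers pair the samples. The main fit has no replicate block, which is used only in the alternatives.

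Of 1188 values of single genes under the alternatives, 22 changed sign, none of them called. Without 1 library, the log2 difference of Fosl1 from TB to Met ran from −0.22 to 0.10 and that of Jund from −0.0001 to 0.21. From PIF to DIF, Fos ran from −0.096 to 0.093, Jun from −0.14 to 0.11, Jund from −0.0506 to 0.36 and Ier2 from −0.039 to 0.20, and Jund from PIF to Met from −0.23 to 0.058. From DIF to Met, Fosl1 ran from −0.0025 to 0.48, Jun from −0.20 to 0.047 and Junb from −0.26 to 0.045. With the 3 libraries left out, Fosl1 from TB to Met was 0.10, Jun from PIF to DIF 0.11 and Egr1 from DIF to Met −0.0253. With the GC trend removed, with or without the block, Jund from PIF to Met was 0.063 and Junb from DIF to Met 0.046. Counting error was widest for Fosb, at 18 to 63 reads per library.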
